A study of Homo sapiens with 12 samples.

Results

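The miR-130, miR-301 and miR-454 family was followed in the human osteosarcoma line Saos-2 and in Sa/CD99, 2 Saos-2 clones (wt22 and wt36) that stably express the membrane protein CD99. Its members were taken as the 5 miRNAs named hsa-miR-130a, hsa-miR-130b, hsa-miR-301a, hsa-miR-301b and hsa-miR-454, out of 851 human miRNA names on the arrays. The study placed the cells in osteogenic medium to follow their differentiation toward osteoblasts, and the comparison of Sa/CD99 with Saos-2 asks what changes when CD99 is present. There were 6 groups of 2 one-colour arrays: Saos-2 at days 0, 7 and 14 (replicates 1 and 2), and Sa/CD99 at days 0, 7 and 14 (clones 22 and 36). All cells were grown in IMDM with serum. Day 0 was sampled in this basal medium, and days 7 and 14 in osteogenic medium, which held less serum and added β-glycerophosphate and ascorbic acid, so that time in culture and the change of medium and serum cannot be told apart between day 0 and the later days. The clones were made by calcium-phosphate transfection and selected with neomycin, whereas Saos-2 was the parental line, so that transfection, selection and CD99 cannot be told apart. What drives CD99 in the clones is not given in the sources used here. Each clone is a single line, measured once at each day, and the labels do not say what the 2 Saos-2 replicates have in common, so p-values measure only the spread between these samples. Arrays of the same clone or replicate number are called a culture below. For Saos-2 the labels do not say that a number stands for the same culture at each day. The miRNA arrays carry no probe for CD99 mRNA, and the transfected gene was not checked here. The study reports checking CD99 expression in all profiled samples with real-time PCR.

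Members of this family share the seed, the stretch near the 5′ end of a miRNA that pairs with target mRNAs, and are therefore predicted to share many targets. miRNAs of this seed are known as widely expressed regulators of growth and differentiation. Among their described targets are components of TGFβ and BMP signaling, pathways that govern the differentiation of osteoblasts from mesenchymal cells. Related miRNAs such as miR-19, miR-148/miR-152 and miR-17 carry part of the same letters at a shifted place.

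The mature sequences are shown because the seed defines the family and because the close similarity of miR-301a and miR-301b bears on what their probes can tell apart. RefSeq (GRCh38.p14) gave the 3p arm, the arm that the plain names on the array stand for, for 4 of the 5 members. Capitals mark bases 2 to 8, the seed, 5′ to 3′.
hsa-miR-130b-3p: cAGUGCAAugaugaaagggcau
hsa-miR-301a-3p: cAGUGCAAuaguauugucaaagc
hsa-miR-301b-3p: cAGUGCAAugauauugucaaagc
hsa-miR-454-3p: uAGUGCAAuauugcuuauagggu
All 4 had the seed AGUGCAA. In the same RefSeq set, 6 mature names carried it, the other two being hsa-miR-3666 and hsa-miR-4295, which are not among the 851 names of the array. Outside the seed the members differ. miR-301a and miR-301b were identical at 21 of 23 positions, and the substitutions from miR-301a to miR-301b were A10G and G11A, counted from 1 at the 5′ end. miR-130b matched miR-301a at 11 of 22 positions read from the 5′ end and miR-301b at 13 of 22. miR-454 matched miR-301a at 13 of 23.

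The genes lie at 3 places. MIR301B and MIR130B are neighbours on the plus strand of chromosome 22, with 245 bases between their precursors, and the mature arms are at chr22:21653025-21653047 for miR-301b and chr22:21653354-21653375 for miR-130b. MIR454 and MIR301A lie on the minus strand of chromosome 17, 13263 bases apart, with mature arms at chr17:59137787-59137809 for miR-454 and chr17:59151149-59151171 for miR-301a. Both lie within the bounds of SKA2, a gene of the spindle and kinetochore associated complex (chr17:59109857-59155186). MIR130A, on chromosome 11, lies within its host gene MIR130AHG. Each pair of neighbours thus holds 1 member that was detected on all 12 arrays and 1 that was not.

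The deposited records do not assign the arrays to the same samples, and this touches every value of the family. The authors deposited a table of normalized log2 values with its own sample labels, and a scanner file per sample. The pattern of detected and undetected names of each of the 12 table columns was found on exactly 1 scanner array, over 847 shared names, against at most 826 for the next best array. In 12 of 12 cases that array was filed under another sample. Values are given by the labels of the table unless stated. "As filed" means the scanner arrays under the samples they were filed with, and "relabelled" means the scanner arrays under the labels of the matching table columns. Which record names the cells correctly was not settled here. The records also differed over all miRNAs: at day 14, 15 of 20 miRNAs called between cell types were higher in Sa/CD99 by the table, 11 of 12 on the relabelled arrays with rma and 4 of 16 on the arrays as filed with rma. By the table's labels, slide 1 held Saos-2 at days 0 and 7 and Sa/CD99 at day 0, and slide 2 held the remaining groups. As filed, each cell type had a slide of its own, and the effects of slide and cells cannot be told apart.

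From 133 to 229 miRNAs were detected on an array. The summed signal of human miRNAs rose from 8594 to 11371 scanner units on the day 0 arrays to between 25232 and 62236 on the later ones, by the table's labels. Of the mesenchymal markers, 10 of 11 were detected, 8 of them on all 12 arrays, and miR-143 was detected on none. Epithelial markers (0 of 5 detected, with all of miR-200a, miR-200b, miR-200c, miR-141 and miR-205 undetected) and blood markers (0 of 6) were absent, and 1 of 4 muscle and 1 of 3 neural markers were detected on some arrays. As the arrays measure bulk RNA, fewer cells of a type and less RNA per cell cannot be told apart.

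miR-130b, the chromosome 22 member, was detected on 12 of 12 arrays and stood lower at each later day in 3 of the 4 cultures. In Saos-2 replicate 1 its log2 values were 3.86, 2.68 and 0.39 at days 0, 7 and 14. In Saos-2 replicate 2 it was 4.81, 3.70 and 3.74, so that this culture stayed high at day 14. In Sa/CD99 clone 22 the values were 3.59, 2.05 and -0.17, and in clone 36 they were 3.52, 1.44 and 0.37. At day 14 clone 36 and Saos-2 replicate 1 were close, at 0.37 and 0.39. Between cell types at days 0, 7 and 14, limma called 2.74%, 3.2% and 9.13% of the 219 miRNAs tested, miR-130b not among them.

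miR-301a, the chromosome 17 member, was likewise detected on 12 of 12 arrays. Its log2 values in Saos-2 replicate 1 were 4.70, 3.49 and 1.49 at days 0, 7 and 14, and in replicate 2 they were 4.77, 3.11 and 3.27. In Sa/CD99 clone 22 they were 4.28, 2.68 and 0.37, and in clone 36 they were 4.20, 0.93 and -0.66. The day 0 arrays were the highest of each culture. The lowest value of all was that of clone 36 at day 14.

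miR-130a, which has a gene of its own on chromosome 11, was detected on 3 of 12 arrays, all of 1 culture. Saos-2 replicate 2 had log2 values of 4.00, 3.05 and 2.73 at days 0, 7 and 14. On the other 9 arrays, both clones and Saos-2 replicate 1 included, the miRNA stood at the floor of the table, which lies between -3.32 and -3.0. As each Saos-2 group thus held 1 detected and 1 undetected array, miR-130a did not pass the filter on detection. In a fit with no filter, which sets 1 array at the floor against 1 well above it, its difference between cell types over all days was -3.23 ± 1.73 (SE, adjusted p = 0.485, limma). miR-454 was detected on 1 array, Saos-2 replicate 2 at day 7, at -2.55, just above the floor. miR-301b was detected on 0 of 12.

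**Figure D1:**
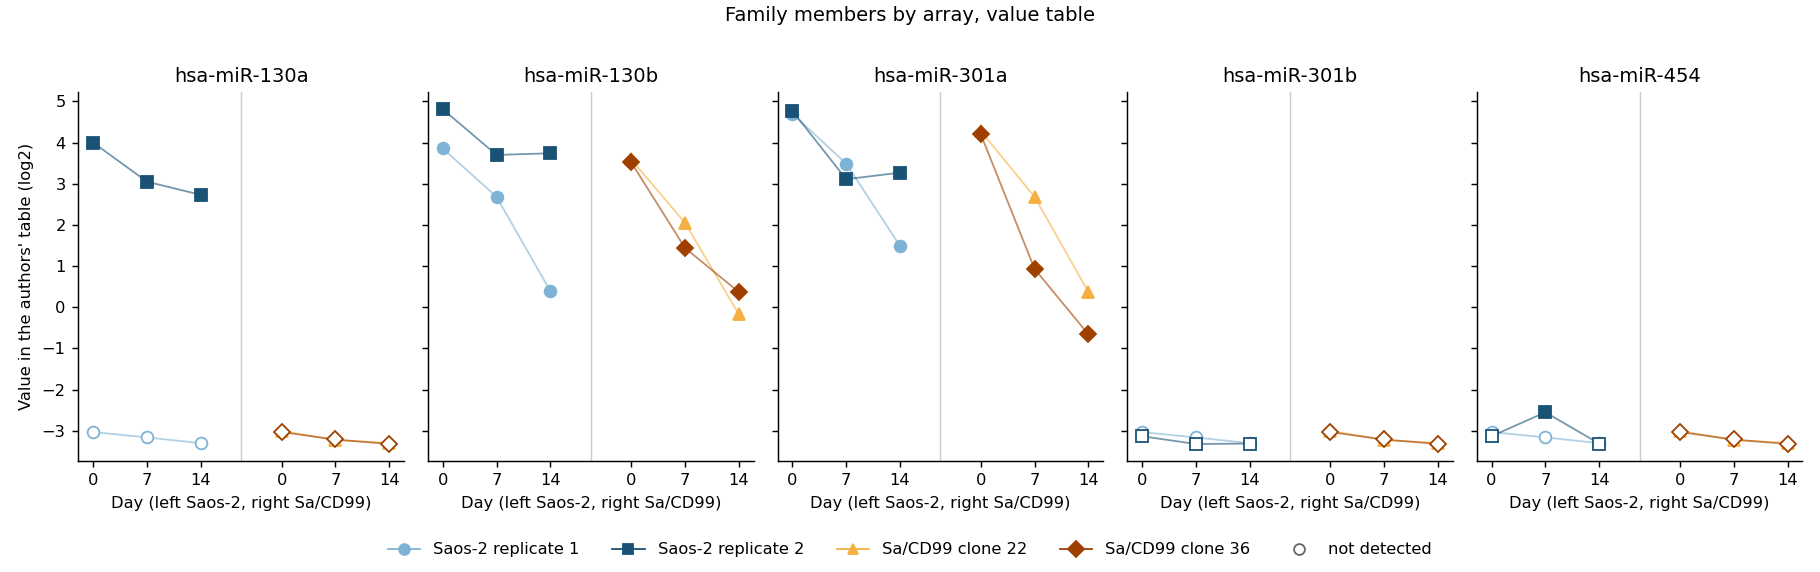
Log2 value of the 5 family members in the authors' table (vertical axis) against the day of culture (horizontal axis, Saos-2 at the left and Sa/CD99 at the right of each panel). Each point is 1 array, and open points are undetected, at the floor between -3.32 and -3.0. Lines join arrays of the same clone or replicate number. miR-130b and miR-301a lie lower at later days with Saos-2 replicate 2 staying high at day 14, and miR-130a is seen in that replicate alone.

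Saos-2 replicate 2 stood apart from the other cultures beyond this family. By the table's labels, 8 miRNAs were detected on its 3 arrays and on none of the others: miR-130a, miR-15a, miR-181a*, miR-30e, miR-31*, miR-324-5p, miR-374a and miR-769-5p. The same count was 0 for each of the other 3 cultures. As filed, these 3 arrays were those of Sa/CD99 clone 36 at days 14 and 7 and of Saos-2 replicate 1 at day 14, so that miR-130a was then detected in both cell types.

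The total gene signal, the scanner's own sum for a miRNA before any normalization between arrays, separated this culture more clearly than the table did. Of miR-130b, the signal in Saos-2 replicate 2 was 19.3, 27.3 and 28.5 units at days 0, 7 and 14, against 6.0, 4.9 and 4.5 in replicate 1. In clone 22 it was 4.8, 6.9 and 5.1, and in clone 36 it was 5.0, 5.9 and 7.6. The 3 arrays of Saos-2 replicate 2 lay above all of the other 9, whose range was 4.5 to 7.6, and the ratio of replicate 2 to replicate 1 was 3.22, 5.57 and 6.33 at the 3 days. At day 7 the summed signal of these arrays was itself unequal, 56553 units in replicate 2 and 25232 in replicate 1, and per 10000 units of it miR-130b made up 4.827 and 1.942. Between the clones and Saos-2 replicate 1 there was no such gap.

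The signal of miR-301a in Saos-2 replicate 2 was 19.2, 18.4 and 22.5 units, against 14.1, 8.3 and 7.2 in replicate 1. Clone 22 had 9.2, 8.0 and 5.5, and clone 36 had 7.8, 4.7 and 6.0. On this unscaled signal too replicate 2 was the highest culture, with 18.4 to 22.5 units against 4.7 to 14.1 on the other arrays, and Saos-2 replicate 1 was above both clones at each day. Per 10000 units of summed signal, replicate 2 was not the higher at day 7, with 3.254 against 3.289 in replicate 1, nor was it in the table, with 3.11 against 3.49. The signal of miR-130a was 11.6, 18.0 and 16.7 in Saos-2 replicate 2, and 0.1, the value the scanner gives to undetected miRNAs, on the other 9 arrays.

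**Figure D2:**
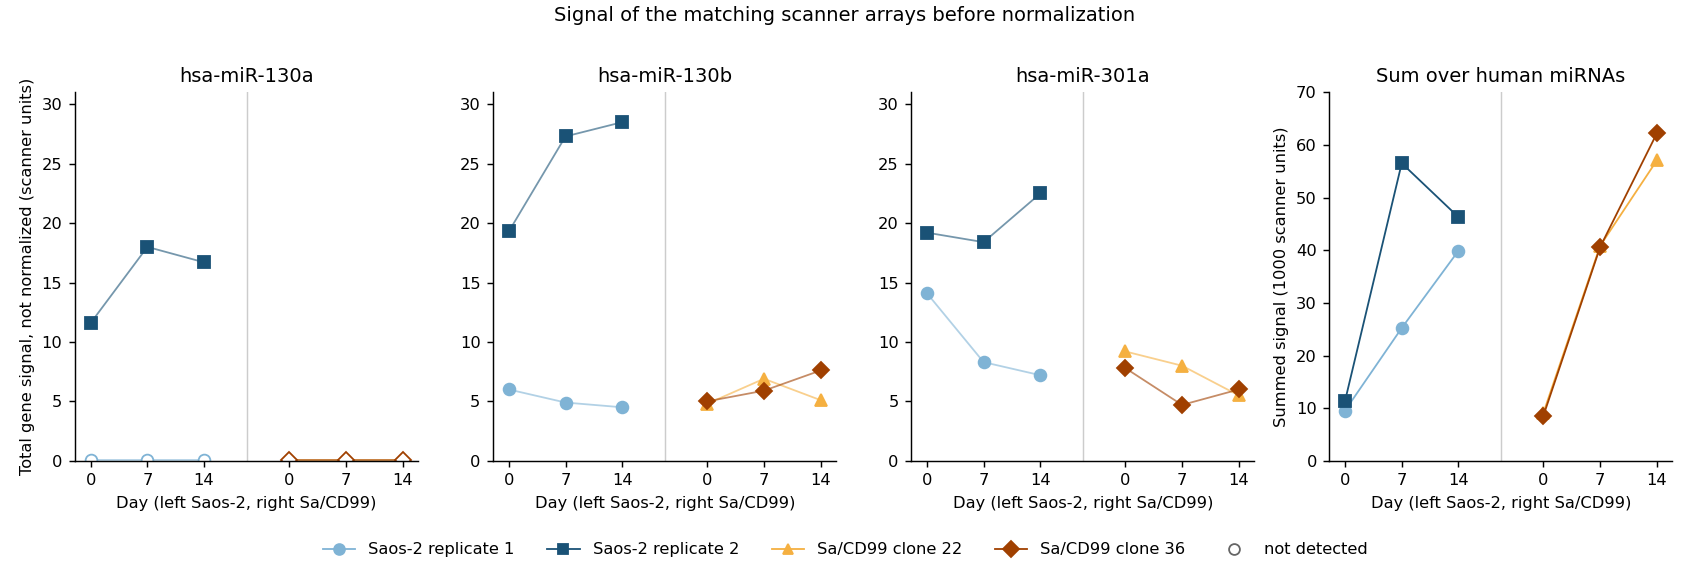
Total gene signal of miR-130a, miR-130b and miR-301a in scanner units, not normalized between arrays, and the summed signal of all human miRNAs in steps of 1000 units (vertical axes), by day and culture under the table's labels (horizontal axes). Each point is 1 array and open points are undetected: Saos-2 replicate 2 lies above the other cultures for the 3 miRNAs, and the summed signal is lowest at day 0, between 8594 and 11371 units.

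On this unnormalized signal the change from day 0 to day 14 was smaller than in the table for both members. Of miR-301a it was lower at day 14 than at day 0 in 3 of the 4 cultures, Saos-2 replicate 2 being the exception, and of miR-130b it was lower in Saos-2 replicate 1 alone. From day 0 to day 14 in Sa/CD99, miR-130b differed by 0.34 ± 1.08 (log2, SE) and miR-301a by -0.55 ± 0.65. In Saos-2 the differences were 0.08 ± 1.08 and -0.37 ± 0.65, and without replicate 2 they were -0.41 ± 0.33 and -0.97 ± 0.42. In Sa/CD99 the median of the 219 miRNAs tested was higher at day 14 by 0.99 in the same signal. The values for Sa/CD99 in the table were -3.45 for miR-130b, -4.38 for miR-301a and -0.64 for the median. Relative to the median of the 219 miRNAs, both members were lower at day 14 in Sa/CD99 on either scale. These 219 include miRNAs that were undetected on some arrays. The relabelled signal was also scaled to the 75th percentile of miRNAs detected on all arrays. There miR-130b differed by -0.3 ± 0.65 in Sa/CD99 and -0.43 ± 0.65 in Saos-2, and miR-301a by -1.2 ± 0.34 and -0.88 ± 0.34. Per 10000 units of summed signal, miR-130b made up 5.256 and 5.818 units on the day 0 arrays of clones 22 and 36 and 0.8934 and 1.221 on the day 14 arrays. On that scale miR-301a went from 10.07 and 9.076 to 0.9634 and 0.9641. In Saos-2 replicates 1 and 2 miR-130b went from 6.291 and 16.97 to 1.128 and 6.154, and miR-301a from 14.78 and 16.89 to 1.804 and 4.858.

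miR-301a fell within both cell types and miR-130b within Sa/CD99 in the limma fit of the table, where 2 of the 5 members, miR-130b and miR-301a, were detected on both arrays of a group and so could be tested. Over the 219 miRNAs tested, 74.4% changed between day 0 and day 14 in Sa/CD99 at an adjusted p of at most 0.05, and 37.4% were called lower, so that a call there is the common case. miR-130b had a group mean of 3.55 ± 0.05 at day 0, 1.75 ± 0.43 at day 7 and 0.10 ± 0.38 at day 14 (SD, n = 2) in Sa/CD99. Its difference between days 14 and 0 was -3.45 ± 0.97 (SE, adjusted p = 0.0129, limma). miR-301a had means of 4.24 ± 0.05, 1.80 ± 1.24 and -0.14 ± 0.73 and a difference of -4.38 ± 0.74 (adjusted p = 0.00133, limma), or 20.8-fold lower at day 14. Thus 2 of the 2 members tested fell over the whole course in Sa/CD99. With columns centred on miRNAs detected on all arrays, miR-130b had -2.33 ± 0.94 and was not called (adjusted p = 0.0672, limma). miR-301a was still called there, at -3.26 ± 0.7 (adjusted p = 0.00422, limma). The call of miR-130b was lost without clone 22 at day 0 (adjusted p = 0.0502, limma) or at day 14 (adjusted p = 0.0673, limma), and that of miR-301a held with any 1 array left out.

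Within Sa/CD99 the fall of miR-301a was already called between days 0 and 7, at -2.43 ± 0.74 (adjusted p = 0.0383, limma), in a step where 32.0% of miRNAs were called. miR-130b differed by -1.81 ± 0.97 (adjusted p = 0.188, limma) in that step. The call of miR-301a was lost without either day 0 array or without clone 36 at day 7, where the difference was -1.56. In a fit of the 4 arrays compared alone, it was lost too (adjusted p = 0.0615, limma) and miR-130b was called (adjusted p = 0.0178, limma), beside 54.0% of miRNAs, so that the count stayed at 1 with another member. From day 7 to day 14, where 19.6% were called, the differences were -1.95 ± 0.74 for miR-301a (adjusted p = 0.101, limma) and -1.64 ± 0.97 for miR-130b (adjusted p = 0.248, limma), and 0 of 2 were called. The last step lies within slide 2. Between day 0 and the later days the slide changed with the day in Sa/CD99, so that day and slide cannot be told apart there.

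In Saos-2, miR-301a had means of 4.74 ± 0.05, 3.30 ± 0.27 and 2.38 ± 1.25 (SD, n = 2) at days 0, 7 and 14 and fell by 2.36 ± 0.74 from day 0 to day 14 (adjusted p = 0.0279, limma), in a comparison with 55.7% of miRNAs called. Without either day 0 array, or without replicate 1 at day 14 (-1.47), that call was lost. Centring the columns on miRNAs detected on all arrays lost it too, at -1.63 (adjusted p = 0.0964, limma). So did quantile normalization of the columns (adjusted p = 0.0727, limma) and a fit of only the arrays compared (adjusted p = 0.0688, limma). miR-130b had means of 4.33 ± 0.67, 3.19 ± 0.72 and 2.07 ± 2.37, and its difference was -2.27 ± 0.97 (adjusted p = 0.0772, limma), or -0.59 without replicate 1 and -3.94, then called, without replicate 2 at day 14. The wide spread at day 14 is that between 0.39 in replicate 1 and 3.74 in replicate 2. From day 0 to day 7, both on slide 1, miR-301a differed by -1.44 ± 0.74 (adjusted p = 0.157, limma) and miR-130b by -1.14 ± 0.97 (adjusted p = 0.338, limma), with 36.5% of miRNAs called and 0 of 2 members. A fit of the slide 1 arrays alone called miR-301a in that step, at the same -1.44 with an SE of 0.28 (adjusted p = 0.0173, limma), where 39.9% of miRNAs were called. From day 7 to day 14 the differences were -0.92 ± 0.74 for miR-301a and -1.12 ± 0.97 for miR-130b, the latter turning to 0.55 without replicate 1 at day 14. In that step limma called 0 of the 219 miRNAs (0.0%), and 19 had an unadjusted p under 0.05. Saos-2 at day 14 lay on slide 2, so day and slide cannot be told apart between day 14 and the earlier days.

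Leaving out the 3 arrays of Saos-2 replicate 2 left 1 Saos-2 array a day, whose spread was then taken from the other groups. Without them, miR-130b fell by 3.47 ± 0.44 from day 0 to day 14 in Saos-2 (adjusted p = 0.00399, limma, with 58.4% of miRNAs called). miR-301a had -3.21 ± 1.01 in Saos-2 (adjusted p = 0.0538, limma). The call of miR-301a in that comparison was thus lost and that of miR-130b gained. From day 7 to day 14 in Saos-2, miR-130b was called at -2.29 (adjusted p = 0.0464, limma), beside 15.5% of miRNAs. In Sa/CD99, whose group means these arrays do not enter, the smaller estimate of the spread of miR-130b called it from day 0 to day 7 (adjusted p = 0.0118, limma) and from day 7 to day 14 (adjusted p = 0.0181, limma). In the first of these steps the call of miR-301a was lost (adjusted p = 0.0527, limma), and 48.9% and 42.9% of miRNAs were called in the 2 steps.

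The 4 ways of reading the same arrays were set side by side for the change over days. On the relabelled arrays, processed with rma steps written after the methods, whose own package was not run here, miR-301a was called lower at day 14 than at day 0 in Saos-2, at -1.47 ± 0.34 (adjusted p = 0.00507, limma), and in Sa/CD99, at -1.85 ± 0.34 (adjusted p = 0.000916, limma), where 56.2% and 70.3% of miRNAs were called. miR-130b was called in neither, with -0.89 ± 0.63 and -0.63 ± 0.63. On the arrays as filed, miR-130b was higher at day 14 by 1.13 ± 0.56 in Saos-2 and by 1.25 ± 0.56 in Sa/CD99, miR-301a by 0.31 ± 0.67 and 0.10 ± 0.67, and 0 of 2 members were called in either. There 0.0% of the 213 miRNAs tested were called in both comparisons, with 4 and 8 at an unadjusted p under 0.05. With rma, the direction of the change from day 0 to day 14 therefore depends on which deposited labels are used.

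**Figure D3:**
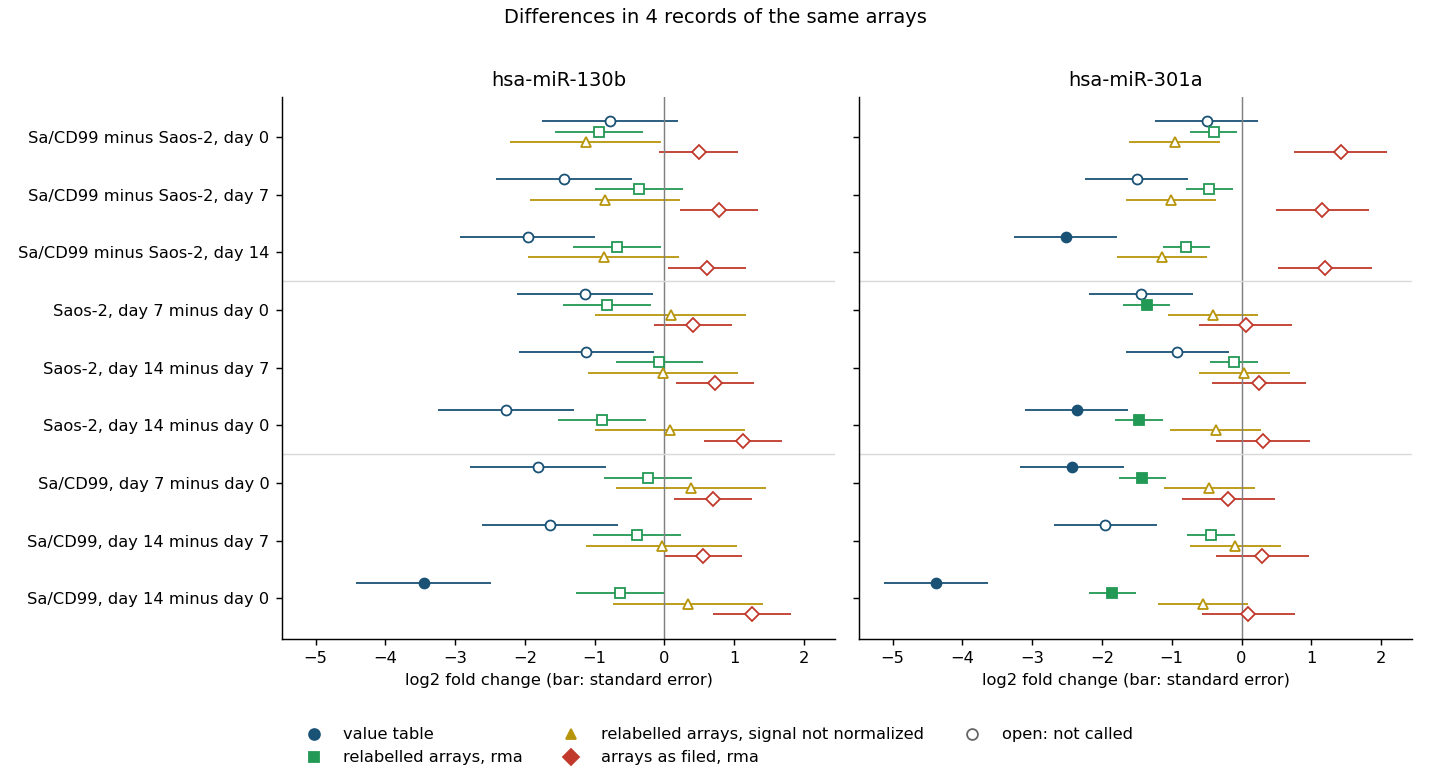
Log2 fold change (horizontal axis, bars are standard errors from limma) of miR-130b and miR-301a for 9 comparisons (vertical axis) in 4 readings of the same arrays: the value table, the relabelled arrays with rma, the relabelled arrays without normalization and the arrays as filed with rma. Filled symbols were called: the differences between cell types are below 0 in the first 3 readings and above 0 as filed, and the day 14 minus day 0 difference in Sa/CD99 runs from -3.45 to 1.25 for miR-130b.

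Between cell types, both members were lower in Sa/CD99 at each day by the table, and 1 difference was called. These comparisons follow the call rule of the methods, a fold change of at least 1.4 with p at or below 0.01 before adjustment. At day 14 miR-301a was 5.74-fold lower in Sa/CD99, at -2.52 ± 0.74 on the log2 scale (adjusted p = 0.103, limma). Of the 219 miRNAs, 9.13% were called there and 2.28% were called lower. The difference of miR-130b was -1.96 ± 0.97 (adjusted p = 0.320, limma). In a fit of the slide 2 arrays alone, which hold both cell types at that day, the difference of miR-301a was again -2.52 with an SE of 0.91 (adjusted p = 0.202, limma) and was not called, while 10.2% of miRNAs were. The call of miR-301a was also lost without either clone at day 14 (-3.04 and -2.01) or without Saos-2 replicate 2 at that day, and without Saos-2 replicate 1 at that day miR-130b was called too, at -3.64. With all 3 arrays of Saos-2 replicate 2 left out, the difference was -1.64 ± 0.88 for miR-301a and -0.29 ± 0.38 for miR-130b, neither of them called beside 8.68% of miRNAs.

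At day 0, with 2.74% of miRNAs called, the differences were -0.78 ± 0.97 for miR-130b and -0.50 ± 0.74 for miR-301a, both within slide 1. Leaving out Saos-2 replicate 1 or 2 moved that of miR-130b to -1.25 or -0.31. The 95% intervals ran from -3.03 to 1.47 and from -2.20 to 1.20, so that differences of several fold either way were not detectable with 2 arrays a group. At day 7, with 3.2% called, they were -1.44 ± 0.97 and -1.50 ± 0.74. Without clone 36 that of miR-301a was -0.62 and without clone 22 it was -2.37, and that of miR-130b was -0.93 without Saos-2 replicate 2. The cell types lie on different slides at day 7, and the effects of slide and cells cannot be told apart there. Neither member was called at day 0 or day 7.

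Over all days, miR-130b had a difference of -1.4 ± 0.56 (log2, SE, adjusted p = 0.343, limma) and miR-301a had a difference of -1.51 ± 0.43 (adjusted p = 0.142, limma). Neither passed an adjusted p of 0.05, which 2.74% of miRNAs did. This fit takes the days of a culture as independent arrays. With same-numbered arrays as a block, the SE was 0.6 for miR-130b and 0.47 for miR-301a (adjusted p = 0.473 and 0.233, limma). Without Saos-2 replicate 1 at day 14 both were called, at -1.96 and -1.80, and without replicate 2 at that day miR-130b had -0.84. Without all 3 arrays of Saos-2 replicate 2 the differences were -0.51 ± 0.22 and -1.26 ± 0.51. On the unnormalized signal without it, the difference over all days was 0.19 ± 0.16 for miR-130b and -0.49 ± 0.21 for miR-301a. The interaction of cell type and day, the test of whether the course differed between cell types, gave an adjusted p of 0.958 for miR-130b and 0.766 for miR-301a (limma), with 1.83% of miRNAs called. The steeper fall of the clones in the table is thus not shown to differ from that of Saos-2.

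As filed and processed with rma, the order of the cell types was turned. miR-301a was higher in Sa/CD99 at days 0, 7 and 14, by 1.42 ± 0.67, 1.16 ± 0.67 and 1.20 ± 0.67, and over all days by 1.26 ± 0.39 (adjusted p = 0.0345, limma), in a comparison with 38.0% of the 213 miRNAs called. As each cell type has its own slide in this filing, cell type and slide cannot be told apart there. miR-130b was higher by 0.49 ± 0.56, 0.78 ± 0.56 and 0.61 ± 0.56, and by 0.63 ± 0.33 over all days (adjusted p = 0.136, limma). At single days neither was called, and 3.76%, 0.0% and 7.51% of miRNAs were at days 0, 7 and 14, with 7 at an unadjusted p under 0.05 at day 7. On the relabelled arrays with rma, both were lower in Sa/CD99 at each day, with -0.94, -0.36 and -0.68 for miR-130b and -0.40, -0.46 and -0.79 for miR-301a, and none of these differences was called, while 5.02%, 1.83% and 5.48% of miRNAs were. With rma, the direction between cell types thus differed between the labels of the table and the samples as filed, for both members at each day. On the unnormalized signal as filed, miR-130b at day 14 had -0.40 ± 1.04, the direction of the table.

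The probes behind these values were unequal. Each member had 16 spots an array, from 4 probes of 4 spots for miR-301b and 2 probes of 8 spots for the others. One probe of miR-130b was well above background on 88 of 96 spots over the 12 arrays, and its array medians, after subtraction of the local background, ran from 8.57 to 46.0 units. The other probe passed on 15 of 96 spots, all 15 on the 3 arrays of Saos-2 replicate 2. For miR-301a the counts were 90 of 96 and 20 of 96. Its weaker probe passed on 17 spots of Saos-2 replicate 2, 2 of replicate 1 at day 0 and 1 of clone 22 at day 7. Both probes of miR-130a lit up in the same culture, with 24 of the 25 passing spots of one probe and 21 of the 22 of the other on the 3 arrays of Saos-2 replicate 2. In the clones and in Saos-2 replicate 1 the level of miR-130b thus rests on 1 probe, with array medians from 8.57 to 14.4 units, and that of miR-301a almost wholly on 1 probe, with medians from 8.82 to 20.1.

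**Figure D4:**
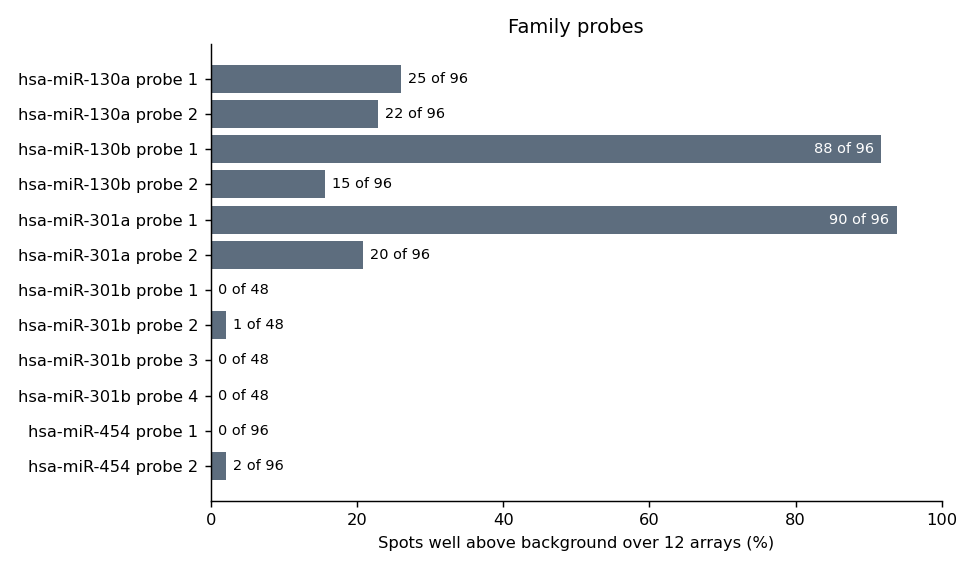
Share of the spots of each family probe that were well above background over the 12 arrays (horizontal axis, percent), with the count of spots beside each bar (vertical axis, probes numbered within a miRNA). The first probes of miR-130b and miR-301a passed on 88 and 90 of 96 spots, the miR-130a probes on 25 and 22, and those of miR-301b and miR-454 on 2 at most.

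The probes of miR-301b and miR-454 were at background. Of the 4 miR-301b probes, 1 spot of 48 passed for 1 probe and 0 of 48 for the other 3, and for miR-454 it was 2 of 96 and 0 of 96. Their neighbours were detected on all 12 arrays: miR-130b beside miR-301b on chromosome 22, and miR-301a beside miR-454 on chromosome 17. miR-301b was undetected on the arrays where miR-301a, which differs from it at 2 positions, was detected. The other arms of the hairpins that the array covers, miR-130a*, miR-130b* and miR-454*, were detected on 0 of 12 arrays.

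The 2 members seen on all arrays moved together. Across the 12 columns of the table, the log2 values of miR-130b and miR-301a had a Pearson r of 0.919. The median over all pairs of the 100 miRNAs detected on all arrays was 0.675. After the group means were subtracted the r of the 2 members was 0.604, for which no median over pairs was computed. These 12 points share arrays, days and normalization, and the r is a description. On the unnormalized log2 signal it was 0.815, likewise without such a median. The miRNAs whose values were most like the mean of the 2 members, out of 98 compared, were miR-30c with an r of 0.971, miR-361-5p with 0.957 and miR-1274a with 0.955, while the median r was 0.751 and 14 miRNAs were above 0.9. miR-30c, a miRNA described to restrain osteoblast differentiation through RUNX2, had a difference of -4.19 between days 14 and 0 in Sa/CD99, given without a test because it was picked by its likeness over the same columns.

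miRNAs with an overlapping seed were called at a share near or below that of all miRNAs in the comparisons given here, counting both directions. Counting only calls of lower miRNAs, 4 of 8 between days 14 and 0 in Sa/CD99 stood against 37.4% of all miRNAs. The medians of the list lay below those of all 219 in these comparisons. A member of each list is printed to show the overlap: the letters GUGCAA of the family seed stand 1 base earlier in miR-19b, AGUGCA stands 1 base later in miR-148b, and AGUGC stands 2 bases later in miR-17. Capitals again mark bases 2 to 8.
hsa-miR-19b-3p: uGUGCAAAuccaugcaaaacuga
hsa-miR-148b-3p: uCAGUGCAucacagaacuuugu
hsa-miR-17-5p: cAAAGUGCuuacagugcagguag
miR-19a and miR-19b, from the oncogenic cluster that also encodes miR-17 and, for miR-19b, from its paralog too, were detected on 12 of 12 arrays. Between days 14 and 0 in Sa/CD99, both fell, miR-19a by 2.84 ± 0.80 and miR-19b by 1.03 ± 0.36 (adjusted p = 0.0129 and 0.0302, limma). Of the 8 seed-related miRNAs tested out of 11 listed, 4 were called in that comparison, all 4 lower, where 74.4% of all miRNAs were called and 37.4% were called lower. The list had a median difference of -1.18 against -0.64 for all 219. The others called were miR-93 and miR-106b of the miR-17 family, at -1.18 ± 0.34 and -1.46 ± 0.44 (adjusted p = 0.0143 and 0.0159, limma). In Saos-2 the same list had a median of -0.96, against -0.47 for all 219, and 0 of 8 called, with 55.7% of all miRNAs called. Between cell types 0 of 8 were called at days 0, 7 and 14, where 2.74%, 3.2% and 9.13% of all miRNAs were called. The medians of the list were -0.52, -0.70 and -0.94, against 0.06, 0.02 and 0.0 for all 219. Of the miR-148/miR-152 list, miR-148a and miR-152 were undetected on all arrays and miR-148b was detected on 10.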

How the data were processed

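The 12 arrays were Agilent human miRNA arrays (v.3). The authors extracted spot intensity with Feature Extraction, version 10.7.3.1 per the file headers, and deposited it without normalization between arrays, together with a table of normalized log2 values, whose normalization is not stated in it. The columns of the table rank the miRNAs as the total gene signal of the matching arrays does, with undetected miRNAs at a floor. The table, by its own labels, gave the main values. limma 3.58.1 on R 4.3.3 was fitted over the 6 groups, with 6 residual degrees of freedom, to the 219 miRNAs seen on both arrays of any group. Following the methods, cell types at a day were called different where p was 0.01 or less and the absolute log2 fold change 0.485 or more. The methods state no rule for the other comparisons, which were called where p after Benjamini-Hochberg adjustment was 0.05 or less. Scanner arrays were background-corrected, quantile normalized and summarised by median polish (rma, after the methods but not with their package), or left as total gene signal. Same-numbered arrays deviated together in the table, with correlations between 0.413 and 0.631 over 100 miRNAs, so the numbers were used as a replicate block in an alternative. Reported miRNAs were the 5 members, their other arms, seed-related lists and the 3 miRNAs most like the members. Members and lists were chosen with earlier results of these data known. The fit was tested on simulated data. The number of arrays limits the precision. The study's mRNA arrays were not analysed here.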

Additional observations from a re-analysis of the deposited data

How the results depend on the processing

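Across all 20 differences of miR-130b and miR-301a, leaving out arrays gave 116 values, of which 93 kept direction and call, 14 lost the call, 8 gained it and 1 turned. That one was miR-130b from day 7 to day 14 in Saos-2, with a range from -2.80 to 0.55, the latter without replicate 1 at day 14. The other settings gave 346 values, of which 233 kept both, 36 lost the call, 7 gained it and 70 turned. The number of members called, from leaving out arrays, ranged from 0 to 0 between cell types at days 0 and 7, from 0 to 2 at day 14 and over all days, from 0 to 0, 0 to 1 and 0 to 2 in Saos-2 (days 7 minus 0, 14 minus 7 and 14 minus 0), from 0 to 1, 0 to 1 and 1 to 2 in the same steps of Sa/CD99, and was 0 for the interaction. The replicate block changed no call of a member; the difference of miR-130b between days 14 and 0 in Sa/CD99 was then -3.45 ± 0.88.

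With the arrays as filed and rma, the log2 differences that turned were, for miR-130b and then miR-301a, 0.49 and 1.42, 0.78 and 1.16, 0.61 and 1.20 between cell types at days 0, 7 and 14, 0.63 and 1.26 over all days, 0.41 and 0.06, 0.72 and 0.25, 1.13 and 0.31 in the 3 Saos-2 steps, and 0.70, 0.55 and 1.25 for miR-130b in the Sa/CD99 steps, with 0.30 and 0.10 for miR-301a in the last 2. With 75th percentile scaling as filed they were 0.28 and 0.74, 0.95 and 1.34, 0.29 and 0.94 between cell types, 0.50 and 1.01 over all days, 0.09, 0.66 and 0.75 for miR-130b and 0.39 and 0.03 for miR-301a in Saos-2, and 0.76, 0.00 and 0.76 for miR-130b and 0.24 and 0.23 for miR-301a in Sa/CD99. With the unnormalized signal as filed they were 0.01 and 0.47, 0.82 and 1.21 at days 0 and 7, 0.25 for miR-301a at day 14, 0.14 and 0.64 over all days, 0.59 and 0.14, 0.84 and 0.57, 1.43 and 0.71 in Saos-2, and 1.4 and 0.89, 1.02 and 0.49 in Sa/CD99 from day 0. On the relabelled arrays, the unnormalized signal turned miR-130b to 0.09 and 0.08 (Saos-2) and 0.38 and 0.34 (Sa/CD99) from day 0 to days 7 and 14, and miR-301a to 0.04 from day 7 to day 14 in Saos-2. Without Saos-2 replicate 2, miR-130b was also turned between cell types, to 0.40, 0.46 and 0.19 at days 7 and 14 and over all days. Scaling to the 75th percentile of all miRNAs gave 1.55 and 1.38 between cell types at day 7, 2.37 and 2.43 from day 7 to day 14 in Saos-2, and 0.08 and 0.38 for miR-130b from day 0 to day 14 in Saos-2 and to day 7 in Sa/CD99. The cause was not tested.

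The call of miR-301a between cell types at day 14 fell to 0 with no filter, with centred columns, with only the arrays compared, within slide 2, by adjusted p and on every scanner reading. It held with columns quantile normalized again, with undetected values missing, over miRNAs detected on all arrays and with the replicate block. The 1 call in Saos-2 from day 0 to day 14 became 0 with centring, quantile normalization, only the arrays compared, the other call rule and on the scanner readings other than the relabelled rma and normexp ones, and 2 with no filter or only miRNAs detected on all arrays. The 1 call in Sa/CD99 from day 0 to day 7 became 0 with centring, quantile normalization, the other call rule and the same scanner readings, and 2 with no filter. With only the arrays compared that count was 1 again, but of miR-130b in place of miR-301a. The 2 calls there from day 0 to day 14 became 1 with centring and on the relabelled arrays with rma, normexp or 75th percentile scaling over miRNAs detected on all, and 0 as filed, unnormalized or scaled over all miRNAs, and were 3 with no filter. With normexp the differences were far smaller, -0.31 for miR-301a and -0.10 for miR-130b there and -0.30 and -0.16 in Saos-2. A call was gained, 1 in place of 0, in Saos-2 from day 0 to day 7 with no filter, within slide 1 and on the relabelled arrays with rma or normexp, in Sa/CD99 from day 7 to day 14 with only the arrays compared, and over all days by the other call rule and as filed with rma. With no filter the added calls were of miR-301b, undetected on all arrays, which stands at the floor and differed there by -0.16 to -0.29, as the floor itself did. Settings on the unnormalized signal and those without Saos-2 replicate 2 were chosen after seeing the data. normexp was run on the spot medians without subtraction of the local background. Slide could not be a term of the fit, as each group lay on 1 slide. The number of arrays, 2 a group, limits every value, and signal near background limits the members on all but the 3 arrays of Saos-2 replicate 2.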
